A study of Mus musculus with 441 samples.

Results

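Otx2, Fgf5, Pou3f1, Zic2, Car4 and Sox3, 6 genes usually read as marks of the primed epiblast, were followed through the RNA and chromatin tables of a study of mouse embryonic stem cells. They were taken by name, not by a measured value. All 6 had a row among the 21001 names of the bulk RNA table, the 22392 names used from the stem cell table and the 23167 gene windows of the chromatin table. Of the 18873 names of the table of neural precursor cells, 5 were members, and Car4 was not analysed there. Cells of v6.5, a hybrid mouse embryonic stem cell line, came from medium with serum+LIF or from 2i+LIF medium, in which small molecules block the kinases MEK and GSK3. A Dgcr8 -/- line made in the v6.5 background, which lacks mature microRNAs, was kept in serum+LIF, and the labels do not say whether it is 1 clone. All stem cell cultures therefore held LIF. Nestin-positive neural precursor cells were differentiated from v6.5 cells, selected in ITSFn and expanded in N2 with bFGF on laminin. Single-cell RNA came from 90 and 93 serum cells on 2 plates, 94 cells in 2i, 84 Dgcr8 -/- cells and 54 neural precursor cells, and bulk RNA from 2 serum, 1 2i and 2 Dgcr8 -/- libraries. ChIP-seq had 1 library for each of 6 targets, with an input, in each of the 3 stem cell cultures. Serum samples are the shared controls of the 2i and the Dgcr8 -/- comparisons, so the values of these comparisons are set side by side only.

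Pluripotent cells of the mouse embryo pass from a naive state, before implantation, to a primed state, in the epiblast after implantation. FGF ligands acting through MEK and ERK drive this transition, and the inhibitors in 2i hold cells in the naive state, while serum+LIF cultures mix cells along the way. Otx2 is a homeobox transcription factor that starts the transition by redirecting OCT4 to new enhancers. Pou3f1 (Oct6) is a POU factor induced beside it, Zic2 a zinc finger factor at enhancers, and Sox3 a SOXB1 factor of the late epiblast and neural plate. Fgf5 encodes a secreted ligand and is the textbook marker of the primed epiblast. Car4 encodes carbonic anhydrase 4, an enzyme anchored at the outer cell membrane. Silent developmental genes in stem cells often carry H3K27me3, the mark of Polycomb repressive complex 2, together with H3K4me3, the mark of CpG-rich promoters. H3K27ac marks active promoters and enhancers.

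Because both H3K4me3 and H3K27me3 are placed by preference on CpG-rich starts, the 250 bases before the annotated start of 3 members are shown, from RefSeq on GRCm38.p6. They are the ones matched by symbol in the promoter table used here. The sequences are written 5′ to 3′ on the strand of the gene, with each CpG in capitals. They lie at chr5:98253934-98254183 (plus strand) for Fgf5, at chr11:84957504-84957753 (plus strand) for Car4 and at chr14:48667645-48667894 (minus strand) for the upstream-most of 4 starts of Otx2.
Fgf5: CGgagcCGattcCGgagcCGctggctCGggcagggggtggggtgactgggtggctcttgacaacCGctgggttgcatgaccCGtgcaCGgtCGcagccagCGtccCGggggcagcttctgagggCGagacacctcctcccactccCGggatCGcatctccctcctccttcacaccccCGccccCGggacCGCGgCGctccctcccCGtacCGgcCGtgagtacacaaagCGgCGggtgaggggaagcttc
Car4: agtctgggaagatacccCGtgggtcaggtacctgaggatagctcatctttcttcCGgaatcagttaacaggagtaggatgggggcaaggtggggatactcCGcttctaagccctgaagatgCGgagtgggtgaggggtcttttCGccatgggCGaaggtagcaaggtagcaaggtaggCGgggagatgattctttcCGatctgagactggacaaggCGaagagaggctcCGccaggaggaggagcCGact
Otx2: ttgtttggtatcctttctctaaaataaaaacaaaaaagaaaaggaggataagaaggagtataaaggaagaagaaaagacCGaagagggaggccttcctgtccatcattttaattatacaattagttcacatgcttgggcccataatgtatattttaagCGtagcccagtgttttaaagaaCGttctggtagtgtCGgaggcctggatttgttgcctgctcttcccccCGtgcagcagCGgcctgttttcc
Fgf5 had 24 CpG in this stretch, more than 88% of 32851 promoters of the same length, whose median was 6. Car4 had 11, more than 64.4% of promoters. The upstream-most start of Otx2 had 6, and its other starts had 8, 14 and 9. The chromatin counts below come from windows on build mm9, so their positions were not compared with these sequences.

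The level of Dgcr8 in the bulk libraries was 10.6 and 10.3 TPM (a length-normalised share of all transcripts) for serum, 4.66 for 2i and 4.03 and 2.20 for Dgcr8 -/- cells. Its difference in the knockout libraries was -1.51 on the log2(TPM + 1) scale (SE 0.28, limma adjusted p = 3.58e-04), but the 2i library was lower than serum too. Genes at a TPM of 1 or more in bulk numbered 7562 and 8367 for serum, 8991 for 2i, and 10820 and 11057 for the knockout. Medians per cell were 7780 and 7648 for the serum plates, 9974 for 2i, 9318 for the knockout and 7368 for neural precursors. The tested gene at the median was shifted upward by 0.20 in bulk 2i, 0.92 in the bulk knockout, 1.24 on the 2i plate and 1.38 on the knockout plate. Each member's difference is therefore also given relative to this median gene. Defining markers of mesoderm and primitive streak (8 of 8) and of primitive endoderm (7 of 7) were listed at 0 on both serum plates. Naive pluripotency markers reached summed levels of 1383 and 2203 TPM for the serum plates, 2719 for 2i, 1650 for the knockout and 378 for neural precursors. Nanog alone made most of the serum sums, at 820 and 1710 TPM, against 918 in 2i and 368 in the knockout. The higher sum of serum plate 2 than of the knockout rested on Nanog. Its difference was 1.45 in bulk 2i but -0.37 on the 2i plate, and 1.37 and -1.68 in the knockout. Neither plate difference passed, so these sums do not rank the cultures. Neural markers summed to 81.2 to 161.7 TPM on the stem cell plates and 1405 in neural precursors, where fibroblast markers summed to 475 TPM. Few genes made the neural sums, with Vim at 1121 and Pax6 at 202 TPM in neural precursors. Vim was also at 47.9 TPM in 2i and 79.9 in the knockout. Tubb3 went the other way, at 155 TPM on serum plate 1 and 36.7 in neural precursors. In the deposited stem cell table no gene was above 0 in 1 to 9 of the 183 serum cells, in 1 to 4 of the 94 cells in 2i or in 1 to 4 of the 84 knockout cells. A gene listed at 0 there could have been detected in up to 9 serum cells (4.92%), 4 cells in 2i (4.26%) or 4 knockout cells (4.76%).

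The 6 genes did not move as a group. Otx2 and Zic2 were higher in 2i and in the knockout than in serum, Car4 was lower in both, and Fgf5, Pou3f1 and Sox3 stayed under 0.3 TPM in every bulk library. Only Otx2, Zic2 and Car4 reached the mean of 1 TPM needed to enter the tests, each through the cultures where it was high, so their number says nothing by itself. In bulk 2i, 2 of these 3 rose and 1 fell, where 20.4% of the 10081 genes tested rose and 11.8% fell. In the bulk knockout 2 rose and 1 fell, against 62.5% and 11.7% of all genes. Relative to the median gene, 14.3% of genes rose and 15.7% fell in 2i, and 26.8% rose and 28.7% fell in the knockout. On the plates, each taken as 1 sample by the mean over its cells, 2 rose and 1 fell in 2i, against 39% and 1.82% of 12397 genes, and 2 rose and 1 fell in the knockout, against 50% and 2.97%. Relative to the median gene, 4.03% rose and 3.94% fell on the 2i plate, and 7.39% rose and 5.81% fell on the knockout plate. The lone 2i library and the lone 2i and knockout plates were assumed to vary like the repeated samples. No label says that repeated libraries came from separate cultures, so p-values reflect only how far these libraries and plates differed, perhaps for technical reasons.

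**Figure D1:**
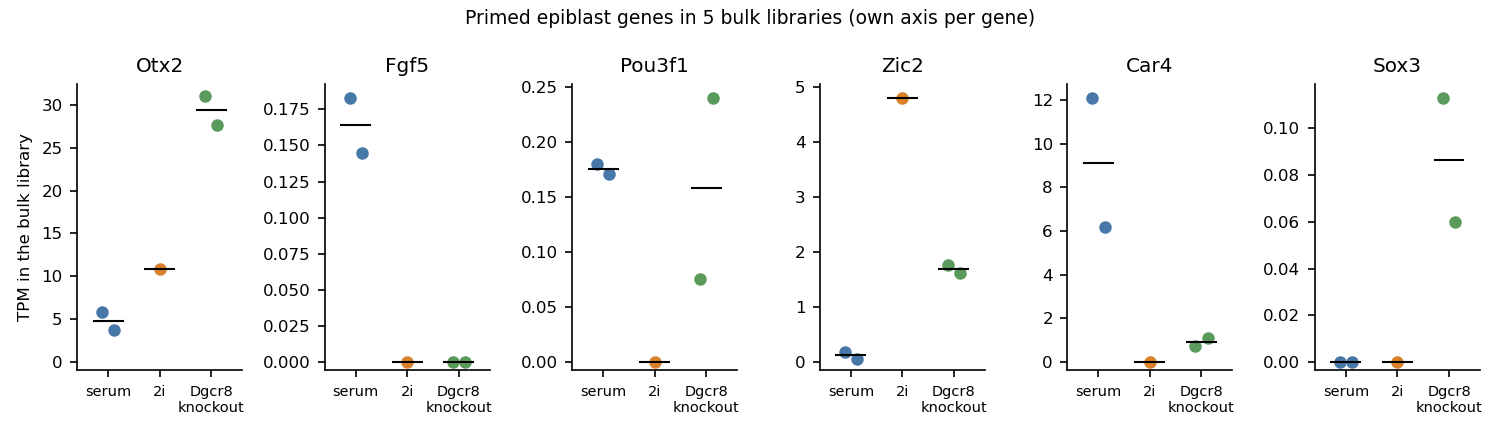
TPM of the 6 genes in each bulk library (1 point per library; vertical axis in TPM), by culture: serum, 2i and Dgcr8 -/-. Otx2 was highest in the 2 knockout libraries (31 and 27.7), Zic2 in the 2i library (4.80) and Car4 in the serum libraries (12.1 and 6.16).

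Otx2 was the most abundant of the 6 transcripts in bulk 2i and knockout cells. Serum libraries stood at 5.89 and 3.70 TPM (mean 4.80 ± 1.55, SD, n = 2), the 2i library at 10.8, and the knockout libraries at 31 and 27.7 (mean 29.4 ± 2.33, SD, n = 2). The cultures did not overlap, and the order was serum, 2i, knockout. The 2i difference was 1.05 (log2 of TPM + 1, SE 0.30, limma adjusted p = 0.0196). Set against the median gene it was 0.85 (adjusted p = 0.0510). The knockout difference was 2.41 (SE 0.25, adjusted p = 3.86e-06). Set against the median gene it was 1.49 (adjusted p = 2.65e-04). The rise in 2i thus lost its call when centred on the median gene, but kept it with each sample shifted to the same median (0.80, adjusted p = 0.0271) and with quantile normalisation (0.82, adjusted p = 0.0273). The rise in the knockout kept its call in all 3. The 2i call was also lost without the second serum library (adjusted p = 0.0571), without the first (0.118) or the second knockout library (0.117), and with no filter on low genes (0.131).

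The plates gave the same order for Otx2. Means over cells were 5.76 and 4.92 TPM on the serum plates, 19.1 on the 2i plate, 41.6 on the knockout plate and 0.519 for neural precursors. Without its highest cell (26.6 TPM) the neural precursor mean was 0.026. That cell, picked after its values were seen, had the naive marker Nanog at 386 TPM (median 3.24). Vim, from the neural list, was at 58.2 (median 1020), while Klf4, another naive marker, was low at 0.636 (median 16.85). The plate differences were 1.67 in 2i (SE 0.26, limma adjusted p = 0.0469) and 2.75 in the knockout (SE 0.26, adjusted p = 0.0263). Relative to the median gene they were 0.42 (adjusted p = 0.384) and 1.37 (adjusted p = 0.0941), neither of which passed. In the table of neural precursor cells, normalised on its own, the level could only be set beside the others.

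The share of cells that held Otx2 differed in the same order between serum and the other cultures. At a TPM of 1 or more it was detected in 42 of 90 serum cells (46.7%, exact binomial 95% interval 36.1 to 57.5) and 51 of 93 (54.8%, 44.2 to 65.2). In 2i it was detected in 89 of 94 cells (94.7%, 88 to 98.3), in the knockout in 75 of 84 (89.3%, 80.6 to 95) and in neural precursors in 2 of 54 (3.70%, 0.452 to 12.7). The intervals cover counting error over cells only. The median serum cell had 0.403 and 2.32 TPM, against 16.8 for 2i and 34.8 for the knockout, with highest cells at 87.8, 45.7, 64.4 and 198.8. Serum cells thus ranged from none to levels above the medians of both other cultures. Cells in 2i and the knockout also had more genes detected. Among cells with 8000 to 9500 genes, Otx2 was detected in 8 of 17 (47.1%) and 7 of 14 (50%) serum cells, 10 of 11 cells in 2i (90.9%) and 44 of 50 knockout cells (88%), shares close to those over all cells.

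**Figure D2:**
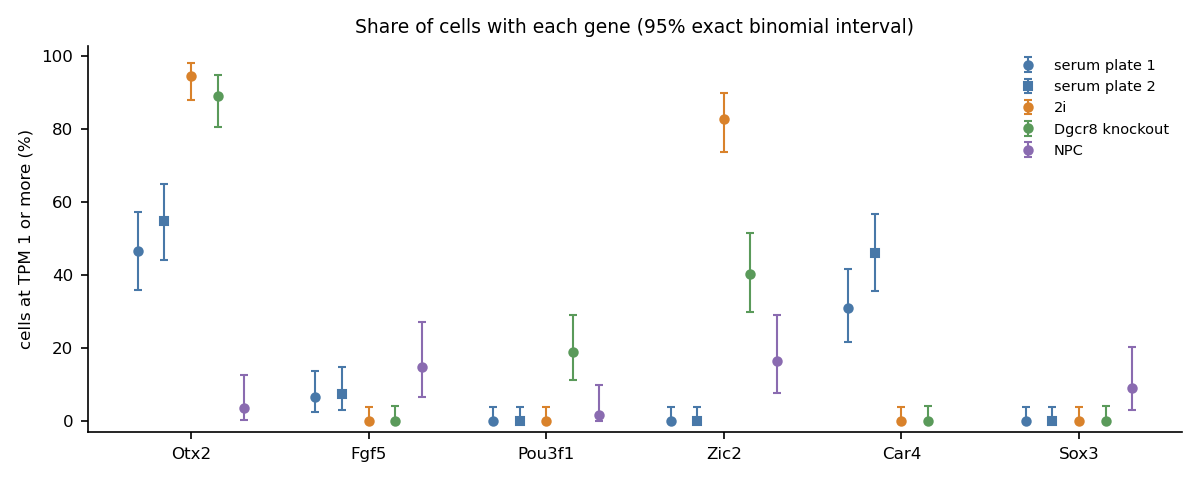
Percentage of cells of each plate with a TPM of 1 or more for the 6 genes (bars over points: exact 95% interval over cells). Otx2 went from 46.7% and 54.8% of serum cells to 94.7% in 2i, Zic2 from a listing at 0 to 83%, and Car4 from 31.1% and 46.2% to a listing at 0.

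Zic2 was near absent in serum and present in 2i. Serum libraries had 0.183 and 0.0578 TPM in bulk, the 2i library 4.80 and the knockout libraries 1.76 and 1.62. The 2i library stood above both knockout libraries, and these above both serum libraries. Its differences were 2.37 in 2i (SE 0.29, limma adjusted p = 6.07e-05, 2.18 relative to the median gene) and 1.27 in the knockout (SE 0.24, adjusted p = 3.92e-04). Against the median gene the knockout value was 0.35 (adjusted p = 0.231) and no longer passed. Plate means were listed at 0 on both serum plates and were 3.77 in 2i, 1.5 in the knockout and 4.17 in neural precursors. The fit on plates gave 2.25 in 2i (adjusted p = 0.00182) and 1.32 in the knockout (adjusted p = 0.00118). Its standard error (0.0146) rested on a pair of serum plates that were both listed at 0. Relative to the median gene, Zic2 differed by 1.01 on the 2i plate (adjusted p = 0.00805) and by -0.06 on the knockout plate.

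Most cells in 2i carried a little Zic2. It was at 1 TPM or more in 78 of 94 cells in 2i (83%, 73.8 to 89.9), 34 of 84 knockout cells (40.5%, 29.9 to 51.7) and 9 of 54 neural precursors (16.7%, 7.92 to 29.3). The median cell had 3.61 TPM in 2i and 0.910 in the knockout, and the highest had 14.5 and 7.51. In neural precursors 1 cell at 143.6 TPM made most of the plate mean, which was 1.54 without it. At 8000 to 9500 genes detected, 10 of 11 cells in 2i and 18 of 50 knockout cells (36%) held Zic2.

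Pou3f1 and Sox3 were hardly detected. Bulk Pou3f1 was 0.180 and 0.171 TPM for serum and 0.0752 and 0.240 for the knockout, which overlapped, and the 2i library was listed at 0. Among cells, Pou3f1 was listed at 0 in serum and 2i, and reached 1 TPM in 16 of 84 knockout cells (19%, 11.3 to 29.1), with a plate mean of 0.637 and a highest cell of 11.7. All 16 of these cells also held Otx2, where 14.3 would if the genes fell independently. Bulk Sox3 was listed at 0 in serum and 2i, and was 0.113 and 0.0598 TPM in the knockout. Among cells, Sox3 reached 1 TPM only in neural precursors, 5 of 54 (9.26%, 3.08 to 20.3), with the other 4 plates listed at 0. That listing allows up to 4.92% of serum cells, 4.26% of cells in 2i and 4.76% of knockout cells. These are above the lower bound of the neural precursor share, so a lower share there was not detectable. The neural precursor mean fell from 0.883 to 0.328 TPM without the highest cell.

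Fgf5, the ligand, was a rare transcript of serum cells. Its bulk level was 0.183 and 0.145 TPM in serum and was listed at 0 in the 2i and both knockout libraries. Means per plate were 0.879 and 0.538 TPM for serum and 0.391 for neural precursors, with the 2i and knockout plates listed at 0. Fgf5 was at 1 TPM or more in 6 of 90 (6.67%, 2.49 to 13.9) and 7 of 93 serum cells (7.53%, 3.08 to 14.9), and in 8 of 54 neural precursors (14.8%, 6.62 to 27.1). The highest serum cells had 52.3 and 21.4 TPM, and without each the plate means were 0.301 and 0.311. The listing at 0 allows up to 4.26% of cells in 2i and 4.76% in the knockout, which is above the lower bounds of the serum shares, so a lower share there was not detectable.

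Car4, the membrane enzyme, was, like Fgf5, listed above 0 only in serum cells among the stem cell plates. Serum libraries had 12.1 and 6.16 TPM in bulk and the knockout libraries 0.755 and 1.10, while the 2i library was listed at 0. Car4 fell by 3.28 in 2i (log2 of TPM + 1, SE 0.38, limma adjusted p = 4.13e-05) and by 2.33 in the knockout (SE 0.31, adjusted p = 2.79e-05). Against the median gene the differences were -3.47 and -3.25. Serum plates had means of 8.77 and 6.94 TPM and the 2i and knockout plates were listed at 0, a difference of -3.14 in both (SE 0.18, adjusted p = 0.0202 and 0.0159). The listing at 0 allows up to 4.26% of cells in 2i and 4.76% in the knockout, and the bulk knockout libraries did hold some Car4. The equal plate differences follow from the 2 listings at 0, which are not a measured absence. Trophoblast markers also fell in bulk 2i, 4 of the 5 tested, where 11.8% of all genes fell. They were Krt7 at -6.31, Krt18 at -6.26, Krt8 at -4.80 and Plac1 at -4.69. In the bulk knockout 4 of 5 fell too, where 11.7% of all genes did. On the plates 1 of 5 fell in 2i and 0 of 5 fell in the knockout, against 1.82% and 2.97% of all genes. The bulk falls of these markers were thus mostly not called on the plates. Their sum on the plates was 60.1 and 226.5 TPM for serum, 22.1 for 2i and 145.7 for the knockout, where Krt18 alone had 98.7. The part of these markers in the fall of Car4 was not tested. In bulk RNA, fewer cells of a type and less RNA per cell cannot be told apart.

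Car4 levels in serum were carried by few cells. It was at 1 TPM or more in 28 of 90 cells (31.1%, 21.8 to 41.7) and 43 of 93 cells (46.2%, 35.8 to 56.9). The highest cells had 391.5 and 374.1 TPM and the next 107.3 and 25.9. The 3 highest cells held 70.1% and 65.7% of all Car4 on the 2 plates. Without the highest cell the plate means were 4.47 and 2.95 TPM, lower by 1.96 and 2.35 times. Among cells with 8000 to 9500 genes, 6 of 17 (35.3%) and 7 of 14 (50%) serum cells held Car4.

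**Figure D3:**
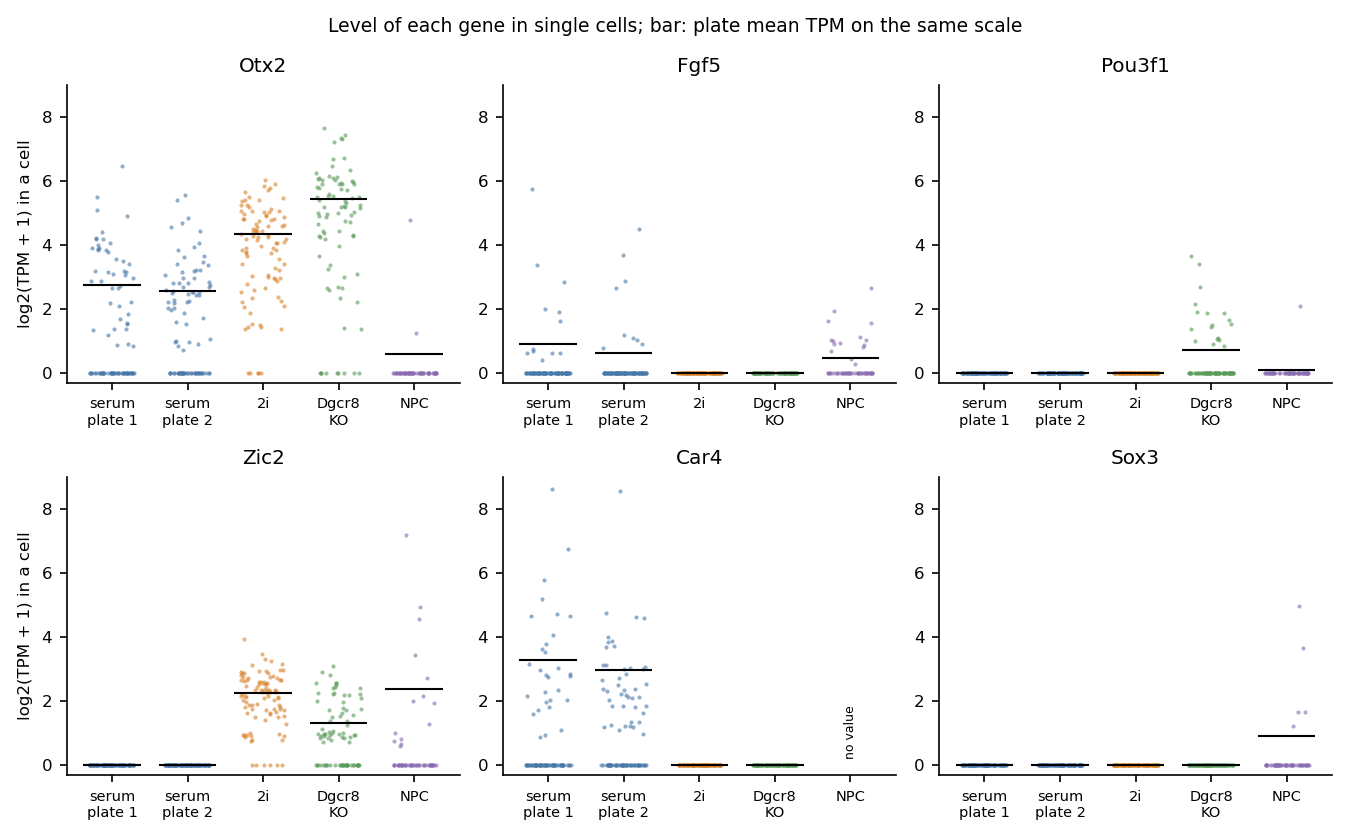
TPM in each cell (1 point per cell, log axis of TPM + 1) for the 6 genes on the serum, 2i, Dgcr8 -/- and neural precursor plates. Otx2 spread from 0 to 87.8 TPM over serum cells, while Zic2 in 2i reached 14.5 TPM and Car4 in serum had highest cells of 391.5 and 374.1.

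The spread between cells differed among members. The SD over cells of log2(TPM + 1) was compared with the running median SD of the genes nearest in mean level on the same plate. Otx2 exceeded it by 0.53 and 0.47 on the serum plates, and 97.5% and 96.0% of these genes were less variable. In 2i the excess was 0.28 (70.1% less variable) and in the knockout 0.52 (82.6%). Car4 exceeded it by 0.70 and 0.54 (98.0% and 98.5% less variable), and Fgf5 by 0.23 on both serum plates (90.5% and 93%), but with a pseudocount of 0.1 only by 0.039 and 0.150 (58.7% and 80.1%). Zic2 lay on the other side, at -0.61 in 2i and -0.44 in the knockout, with 1.99% and 0.995% of like genes less variable. So Otx2 and Car4 in serum were among the more uneven genes of their level, and Zic2 in 2i and the knockout among the more even ones, with either pseudocount.

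Several members were seldom in the same cell. On the first serum plate 37 cells held no member at 1 TPM or more, 32 held 1, 19 held 2 and 2 held 3. On the second the numbers were 27, 35, 27 and 4. Otx2 and Car4 were found together in 17 and 29 cells, where 13.1 and 23.6 would be if they fell independently. Car4 was in 40.5% and 56.9% of cells with Otx2, and in 22.9% and 33.3% of cells without. Of the Fgf5 cells, 5 of 6 and 5 of 7 also held Otx2. In 2i, Otx2 and Zic2 were together in 74 cells, against 73.9 by independence. Over the cells of a plate, which share their chip and library preparation and differ in genes detected, the Spearman correlation between Otx2 and Car4 was 0.20 and 0.25 in serum, and 0.17 and 0.25 after the number of genes detected was taken out. Between Otx2 and Zic2 it was 0.05 in 2i and -0.12 in the knockout. These are weak values in sparse data and are given as a description.

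Over the same serum cells, Otx2 and Car4 were set against the naive genes and against 20 other genes of the primed epiblast. The partners had to be at 1 TPM or more in at least 20% of cells on both plates, which left 13 of 16 naive and 12 of 20 primed genes. With Car4, 11 of 13 naive genes had a negative correlation on both plates and 1 a positive one, while 28.5% of 8898 genes were negative on both and 28.1% positive. The median correlation over naive genes was -0.20 and -0.19. Zfp42, a zinc finger marker of naive cells, had -0.20 and -0.43, and Esrrb, a nuclear receptor of the naive network, -0.30 and -0.21. Of the other primed genes, 7 of 12 were positive on both plates with Car4 and 1 negative, led by Dnmt3b, a de novo DNA methyltransferase, at 0.23 and 0.32. With Otx2, 7 of 13 naive genes were negative on both plates and 0 positive, against 24.4% and 26.5% of all genes, and 8 of 12 primed genes were positive. Klf5 (-0.11 and -0.37) and Zfp42 (-0.27 and -0.19) were among the former, and Dnmt3a (0.20 and 0.24) and Tdgf1 (0.13 and 0.27), the coreceptor of Nodal, among the latter. The genes named here were chosen after their values were seen. The correlation with the number of genes detected was 0.14 and 0.01 for Otx2 and 0.27 and 0.13 for Car4.

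**Figure D4:**
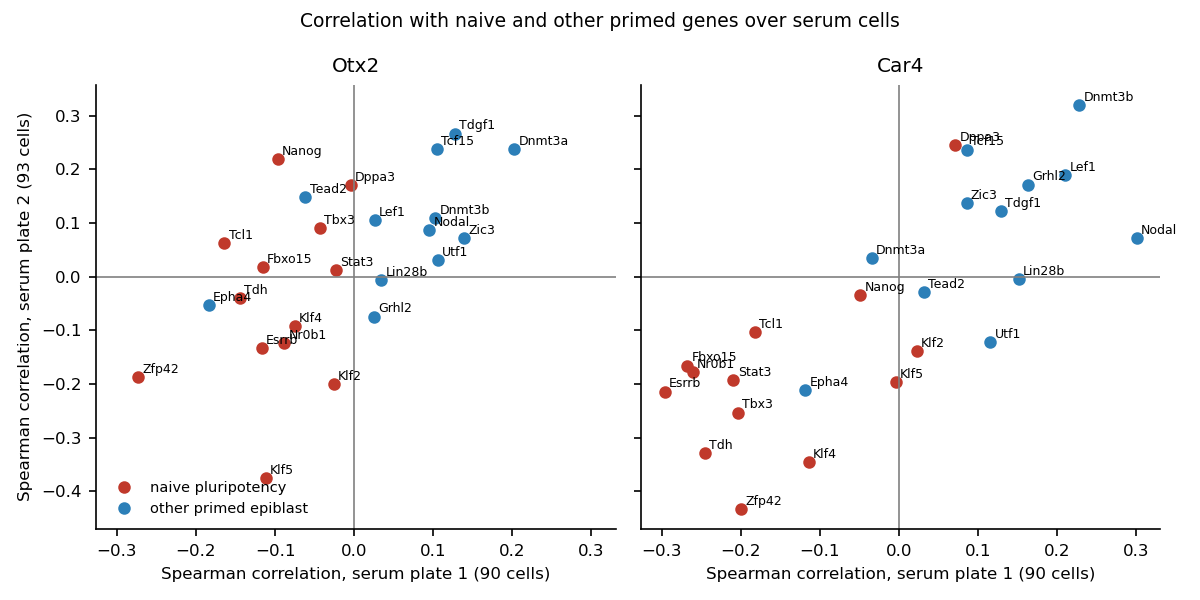
The Spearman correlation of each naive (13) and other primed (12) gene with Otx2 and with Car4 over the 90 cells of serum plate 1 (horizontal axis) and the 93 cells of serum plate 2 (vertical axis). With Car4, 11 of the 13 naive genes lie in the lower left corner, negative on both plates.

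Of 8899 candidate genes, those with the highest smaller correlation over the 2 serum plates were taken as most like each member. For Otx2 they were Trh (0.26 and 0.30), Hmg1l1 (0.23 and 0.27) and Gpc3 (0.23 and 0.36), the first a precursor of thyrotropin-releasing hormone and the last a membrane proteoglycan. For Car4 they were Wiz (0.43 and 0.39), Emb (0.38 and 0.38) and Kcnk1 (0.37 and 0.36), a zinc finger partner of the G9a methyltransferase, a membrane glycoprotein and a potassium channel. The values for Otx2 were low even at the top of the ranking.

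On each serum plate the cell highest in Otx2 and Fgf5 stood apart, and these cells were picked after their values were seen. On serum plate 2, 1 cell had the highest Otx2 (45.7 TPM), Fgf5 (21.4) and Car4 (374.1) of all 93. Nanog, a homeobox factor of the naive network, was at its lowest there, 182 TPM against a plate median of 1599. Zfp42 was at 0 (median 124), and Dnmt3b at its highest, 78.2 (median 14.7). The naive genes, a sum that includes Nanog, came to 399 TPM against a median of 2073, and the other primed genes to 1243 against 585. Its profile was less like the plate (Spearman correlation over genes 0.807) than the median cell (0.858), with 1 of 93 cells lower. On serum plate 1, 1 cell had the highest Otx2 (87.8) and Fgf5 (52.3) but no Car4. It held Pou5f1 (OCT4, a core pluripotency factor) at 367 TPM against a median of 45.2, Nanog at 50.4 against 771, and Dnmt3b at 0. It was the cell least like its plate (correlation 0.693 against a median of 0.850). Without each plate's highest cell the Otx2 means were 4.84 and 4.47 TPM.

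Other genes of the same programme did not follow Otx2 and Zic2 in 2i. Of the 20 other primed epiblast genes 10 were tested in bulk, where 1 rose, 4 fell and 5 did not pass in 2i, with a median difference of -0.64 against 0.20 over all genes. Of all genes 20.4% rose and 11.8% fell there. Dnmt3b (-2.72, SE 0.32), Dnmt3a (-1.69, SE 0.32) and Utf1, a chromatin factor (-1.96, SE 0.41), fell, and Tead2, a factor of the Hippo pathway, rose by 1.71 (SE 0.34). In the knockout 6 rose, 2 fell and 2 did not pass, where 62.5% of all genes rose and 11.7% fell. The median was 0.98 against 0.92 over all genes. Relative to the median gene 3 rose and 2 fell, against 26.8% and 28.7% of all genes. Utf1 rose by 2.82 (SE 0.34) and Dnmt3b fell by 1.99 (SE 0.26). On the plates 12 were tested: 2 rose and 10 did not pass in 2i, where 39% of all genes rose, and 3 rose and 9 did not pass in the knockout, where 50% did. Dnmt3b differed by -1.26 on the 2i plate (limma adjusted p = 0.0770).

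Relatives of the members were counted by family. Of 22 genes of the OTX, FGF (ligands and receptors), POU, ZIC, carbonic anhydrase and SOXB1 families 6 were tested in bulk, and 2 rose and 1 fell in 2i, against 20.4% and 11.8% of all genes. Sox2, the core pluripotency relative of Sox3, rose by 2.03 (SE 0.27), and Fgf4, the autocrine ligand of stem cells, by 2.10 (SE 0.38). Car2, a cytosolic carbonic anhydrase, fell by 2.42 (SE 0.24) in bulk, but on the 2i plate its difference was 0.01 (SE 0.20, limma adjusted p = 0.969). In the bulk knockout 4 of 6 rose and 1 fell, near the 62.5% and 11.7% of all genes. Sox2 rose by 4.22 (SE 0.22) and Fgf4 by 2.39 (SE 0.31), Car2 fell by 2.99 (SE 0.20), and Zic5, the neighbour and relative of Zic2, rose by 1.22 (SE 0.25). Against the median gene Zic5 was at 0.30 (adjusted p = 0.318). Its mean was listed at 0 on both serum plates and was 1.80 TPM in 2i and 1.14 in the knockout, the order of Zic2, but 0.020 in neural precursors, where Zic2 had 4.17.

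Some targets of the inhibited pathway fell in bulk 2i, where most naive genes tested rose. Of 12 ERK targets, feedback genes among them, 9 were tested in bulk, and 0 rose, 4 fell and 5 did not pass. Those that fell were Dusp6, an ERK phosphatase (-2.91), Spry4 (-1.60), Ier3 and Etv5. On the 2i plate 1 of 10 rose and 4 fell, against 39% and 1.82% of all genes. In the bulk knockout 4 of 9 rose and 2 fell, against 62.5% and 11.7% of all genes. Of 16 naive genes 15 were tested, and 11 rose, 0 fell and 4 did not pass in 2i, against 20.4% and 11.8% of all genes, with Tcl1 at 3.40, Tbx3 at 2.43, Esrrb at 2.38 and Prdm14 at 2.05. In the knockout 10 of 15 rose and 1 fell, a share of rises near that of all genes, and relative to the median gene 6 rose and 5 fell, where 26.8% and 28.7% of all genes did. Otx2 and Zic2 were thus higher in bulk 2i beside naive genes, of which 0 of 13 had a positive correlation with Otx2 on both serum plates. Of 4 core pluripotency genes 2 rose and 1 fell in 2i and 3 rose in the knockout, among them Sox2. Of the neural list 2 genes were tested, and 1 rose in each comparison, and of the fibroblast list only Acta2, smooth muscle actin, was tested (-1.87 and -2.79, called in both).

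The chromatin of the members is given as reads in a window of 1000 bases per gene on build mm9, whose place relative to the gene is not stated. The windows are chr14:49282047-49283047 for Otx2, chr14:122874105-122875105 for Zic2, chr4:124334388-124335388 for Pou3f1, chrX:58146105-58147105 for Sox3, chr5:98682702-98683702 for Fgf5 and chr11:84770755-84771755 for Car4. With 1 library per mark and culture there is no test. Ratios are log2 of CPM (counts scaled to the sum over all windows), culture over serum, with an exact 95% interval for counting error only, and the share of all windows with a lower ratio is given as the background.

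Zic2 had fewer H3K27me3 and more H3K27ac reads in both cultures where its RNA was higher. Its H3K27me3 reads numbered 135 for serum, 19 for 2i and 17 for the knockout, ratios of -2.17 (-2.95 to -1.47) and -2.49 (-3.31 to -1.76), and only 0.630% and 0.255% of windows had lower ones. Among all windows it went from the 95.4th percentile in serum to the 58.1st and 43.9th. H3K27ac reads were 306, 1012 and 660, ratios of 1.39 and 1.07, above 98.6% and 98.1% of windows. H3K4me3 was at the 79.7th percentile in serum. Its reads were 1282, 1327 and 652, with ratios of 0.71 and 0.45, above 77.6% and 54.8% of windows. RNA polymerase II reads were 34, 38 and 104, ratios of 0.92 and 1.51. Input reads were 45, 53 and 51 and did not move with these marks, but they were high, at the 99.1st, 98.2nd and 99.1st percentile.

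Otx2 also had less H3K27me3 outside serum, with 73, 19 and 14 reads, ratios of -1.28 (-2.09 to -0.54) and -1.89 (-2.83 to -1.05), and 3.89% and 0.652% of windows lower. The other marks of Otx2 differed in direction in 2i. H3K4me3 reads were 390, 110 and 187, ratios of -1.17 in 2i (5.31% of windows lower) and 0.37 in the knockout (52.5% lower). On the CPM scale H3K4me3 stood at 25.5 in serum and 11.4 in 2i. With input subtracted these became -16.0 and -17.1 CPM, both under input, a difference of only -1.04 CPM. H3K27ac was 0.53 in 2i (0.23 to 0.83, above 89.1% of windows) and -0.15 in the knockout (-0.50 to 0.20). RNA polymerase II reads were 60, 23 and 127, a ratio of -0.63 in 2i whose interval held 0 (-1.39 to 0.09), and 0.98 in the knockout (0.53 to 1.45).

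Car4 had fewer reads of the active promoter marks outside serum and stayed high among windows in H3K27me3. Its H3K4me3 reads numbered 476 for serum, 50 for 2i and 82 for the knockout, ratios of -2.59 (-3.04 to -2.17) and -1.11 (-1.46 to -0.77), and 0.540% and 0.557% of windows had lower ones. H3K27ac reads were 131, 29 and 38 (-2.51 and -1.82) and RNA polymerase II reads 56, 7 and 22 (-2.25 and -1.45). H3K27me3 reads were 131, 66 and 85, ratios of -0.33 (-0.78 to 0.11) and -0.13 (-0.54 to 0.28), at the 95.1st, 95.9th and 97.4th percentile. The promoter shown above for Car4 has 11 CpG. Input reads were 14, 35 and 28, a move opposite to that of the marks.

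Fgf5 carried the most H3K27me3 of the 6 in serum, 198 reads, against 83 in 2i and 87 in the knockout (-0.60 and -0.69), which left it at the 98.4th, 98.4th and 97.6th percentile. H3K4me3 reads were 516, 135 and 144 (-1.27 and -0.41), H3K27ac 126, 59 and 58 (-1.43 and -1.16) and RNA polymerase II 39, 8 and 20 (-1.53 and -1.06). In serum, where 6.67% and 7.53% of cells had its RNA, its H3K27me3 was thus high among windows, while its H3K4me3 was at the 58.5th percentile and at 1.89 times the median window. Input reads at Fgf5 were 31, 23 and 18 (-0.73 and -0.85, both intervals holding 0), and with input subtracted on the CPM scale the differences in H3K4me3, H3K27ac and RNA polymerase II turned positive. All of these values lay under input in every culture, H3K4me3 at -34.0, -26.9 and -12.1 CPM. The positive sign therefore does not show a gain of mark.

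Pou3f1 and Sox3, with little RNA anywhere, differed less in the CPM ratio of H3K27me3 than Zic2 and Otx2, as did Car4. Pou3f1 had 48, 43 and 31 reads (0.50 and -0.13, both intervals holding 0), and Sox3 109, 51 and 58 (-0.44 and -0.41, both intervals holding 0), near the 92nd to 93rd percentile of windows. The order of the members depends on the scaling. As a ratio to input CPM, Pou3f1 was at 1.17, 2.04 and 1.98 in serum, 2i and the knockout. Sox3, with input reads of only 8, 14 and 9, was at 7.65, 3.97 and 5.36. On the same scale Zic2 was at 1.68, 0.391 and 0.277, Otx2 at 2.16, 1.29 and 0.647, and Car4 at 5.25, 2.05 and 2.53. In 2i the input ratio thus fell by a larger factor at Car4 and Sox3 than at Otx2. H3K4me3 at Pou3f1 was 799, 449 and 193 reads (-0.17 and -0.62, both turning positive with input subtracted, and the first also when scaled to the median window). At Sox3 it was 279, 69 and 136 (-1.35 and 0.39, with 3.90% and 53.4% of windows lower). RNA polymerase II reads at Sox3 were 8, 2 and 29, a ratio of 1.76 (0.59 to 3.10) in the knockout, above 97.1% of windows. H3K9me3 and H3K36me3 gave intervals holding 0 at 5 of 6 and 6 of 6 members in 2i, the exception being H3K9me3 at Fgf5 (1.06, 0.17 to 2.01, with 16 and 36 reads), and at 6 of 6 members in the knockout.

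**Figure D5:**
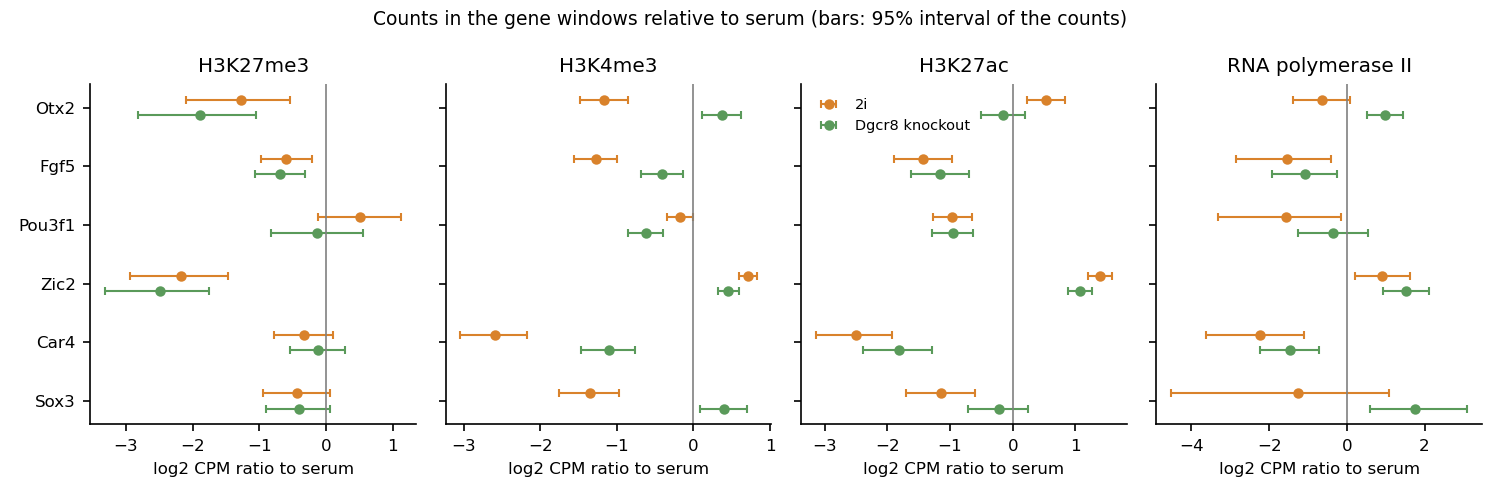
Log2 ratio of CPM in the gene windows, 2i or Dgcr8 -/- over serum, for 4 ChIP targets and the 6 genes (1 library each; bars: exact 95% interval of the counts). H3K27me3 was lowest at Zic2 (-2.17 and -2.49) and Otx2 (-1.28 and -1.89), and H3K4me3 at Car4 in 2i (-2.59).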

How the data were processed

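Values were taken from the deposited tables. RNA values are the natural log of TPM + 1 made by the authors, as the sums after reversing the log show, and were reversed to TPM. Bowtie, RSEM and build mm9 are named, per the submitters' processing notes, without versions or roles. ChIP values are raw read counts per window deposited by the authors, 1 column per library. TPM keeps no depth, so numbers of genes detected stand in for it, and their number limits precision. Names turned into dates were left out of the stem cell table (51 of 22443).

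Bulk and plate differences were fitted with limma 3.58.1 (trend, R 4.3.3) on log2(TPM + 1), which understates changes of low genes, over genes averaging 1 TPM or more. Spread was pooled over cultures, and p-values were adjusted by Benjamini-Hochberg over all genes, with calls at 0.05. Cells were not treated as replicates. All cells were used, chambers had been inspected optically per the labels, and no doublet caller was run. Shares and counts have exact 95% intervals (scipy 1.17.1). The fits were tested on simulated data and recovered 92% (2i) and 99% (knockout) of simulated 4-fold changes in bulk, but 8% and 4% on plates. The simulation changed only 200 genes and left the median gene in place. In the real data the median gene moved and many more genes were called, so these rates need not hold there.

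Members and gene lists (other primed genes, families, naive, core, ERK targets with feedback genes, and markers of other cell types) were chosen with earlier results of these data known. From each list up to 4 called genes with the largest bulk difference could be named, and for each member detected in 20% of serum cells the 3 genes of most like pattern. Alternatives were a pseudocount of 0.1, other filters, scalings, left-out libraries and a replicate block.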

Additional observations from a re-analysis of the deposited data

How the results depend on the processing

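Car4 and, in 2i, Zic2 kept direction and call in every fitted alternative, 11 in bulk and 8 on plates for each comparison. On the plates this rests on values listed at 0, for Car4 in 2i and the knockout and for Zic2 in serum. Otx2 kept its call in 12 of 12 alternatives in the bulk knockout, lost it in 5 of 12 in bulk 2i, in 4 of 9 on the 2i plate and in 1 of 9 on the knockout plate, and Zic2 lost it in 3 of 11 in the bulk knockout. The cause was not tested. The value of Zic2 on the knockout plate turned to -0.060 when centred on the median gene and to -0.22 with each sample shifted to the same median, a setting chosen after seeing the data, under which Spred2 (-0.017) and Spry2 (-0.092), genes of ERK feedback, also turned in the bulk knockout.

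Calls in bulk 2i went from 3239 to 1469 with no filter and ranged from 1847 to 2707 when 1 library was left out. In the bulk knockout they went from 7486 to 4274 at a mean TPM of at least 5, where fewer genes are tested, and ranged from 5825 to 7349. On the 2i plate 5057 calls became 989 when centred, 1224 with quantile normalisation and 7988 with a mean of logs. On the knockout plate 6568 became 1636 and 2587 with the first 2 of these. With a serum plate left out, no residual degree of freedom remained.

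Replicate numbers did not pair the bulk libraries: deviations of equal numbers had r = -0.03 over genes. With a replicate block, 3572 genes were called in bulk 2i and 7692 in the knockout, and Otx2 in 2i had an adjusted p of 0.00656 (limma).

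With input subtracted on the CPM scale, some ChIP differences changed sign, the input falling by more CPM than the mark: for Fgf5 H3K4me3 7.09 in 2i and 21.9 in the knockout, H3K27ac 7.39 and 13.2, RNA polymerase II 10.1 and 16.9, and for Pou3f1 H3K4me3 3.54 and 4.96. At Fgf5 these values lay under input in every culture, so the changed signs there do not show a gain of mark. Scaled to the median window, the log2 ratio of H3K4me3 at Pou3f1 in 2i was 0.26, and the cause was not tested. Of the other differences with input subtracted, 19 moved by more than their counting error and 45 did not. Depth limits RNA polymerase II at Sox3 most, with 2 reads in 2i.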

Other observations

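The serum plate 1 cell highest in Car4 (391.5 TPM), picked after its values were seen, differed from the serum plate 2 cell highest in Car4. It held no Otx2 and no Fgf5. Krt8 and Krt18, keratins of simple epithelia and trophoblast, were at 597 and 199 TPM, and trophoblast markers summed to 838 TPM, the highest of the plate, whose median was 32.5. Naive genes summed to 389 TPM against a median of 1367, a sum that includes Nanog (274 against a median of 771). Esrrb was at 0 and Zfp42 at 10.6 TPM. Its profile had a Spearman correlation of 0.813 with the plate, and 10 of 90 cells were lower.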
